A study of Mus musculus with 12 samples.

Results

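Wnt signalling was followed through 51 genes that encode its ligands, receptors, secreted inhibitors, R-spondins with their receptors, and intracellular regulators. The genes were taken as the rows of the deposited count table whose identifiers pair with the listed symbols, and all 51 were found among its 57186 genes. The study sequenced messenger RNA of 12 breast tumours grown in mice from 4T1, an established murine carcinoma line that lacks hormone receptors. The Tn group held 6 tumours whose 4T1 cells had Cosmc (C1galt1c1) silenced by CRISPR/Cas9. Cells without this chaperone cannot lengthen O-linked glycans, which then stop at the truncated Tn antigen. The WT group held 6 tumours of parental 4T1 cells, and no other allele or agent is named for either group. Tumours of different sizes were chosen by the submitters, and the size of each, the strain and age of the hosts and whether the silenced cells were 1 clone are not given in the sources used here.

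Wnt proteins are lipid-modified signals that bind a frizzled receptor on a neighbouring cell. Together with the co-receptors Lrp5 or Lrp6 this stops the destruction of β-catenin, which then turns on target genes with the TCF/LEF factors. A separate branch, typified by Wnt5a and its receptor Ror2, steers cell movement and polarity without β-catenin. Several target genes, among them Axin2, Nkd1, Notum, Rnf43 and Znrf3, encode proteins that dampen the pathway again. In the mammary gland and its tumours, ligands come from both epithelial and stromal cells.

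The libraries held between 113575859 and 156880766 counts each. These totals exceed the sequencing depth stated by the submitters, also where a read pair adds 2, and the cause was not tested. The targeted gene, C1galt1c1, averaged 11.3 ± 0.775 CPM in Tn and 19.6 ± 3.05 CPM in WT tumours (SD, n = 6 each), lower in the group labelled as silenced. Simple epithelial markers of a mammary tumour were present, with Krt8 at 1001 CPM in Tn and 1147 CPM in WT tumours. Tn tumour 4 stood apart by its B cell markers, Tn tumour 6 by its keratinocyte markers and WT tumour 6 by its adipocyte markers, and results that rest on them are also given without them. The RNA is from whole tumour tissue, so fewer cells of a type and less RNA per cell cannot be told apart.

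Of the 51 genes, 50 passed the filter on low counts and were tested, and 28 differed between the groups at an adjusted p under 0.05. In Tn tumours 7 were higher and 21 lower by the quasi-likelihood test of edgeR, with p-values adjusted by Benjamini-Hochberg over all 19255 genes tested. Among all tested genes 36.8% passed, 19.5% higher and 17.4% lower, while of the 50 Wnt genes 56% passed, 14% higher and 42% lower. The median log2 fold change, Tn over WT throughout, was -0.44 over the 50 genes and 0.01 over all tested genes. In 14 of the 50 genes (28%) all 6 Tn tumours lay on one side of all 6 WT tumours, against 17.2% of all tested genes. By role, 5 of 13 ligands were lower and 3 higher, 4 of 10 frizzled receptors were lower and 0 higher, and 5 of 8 secreted inhibitors were lower and 1 higher.

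**Figure D1:**
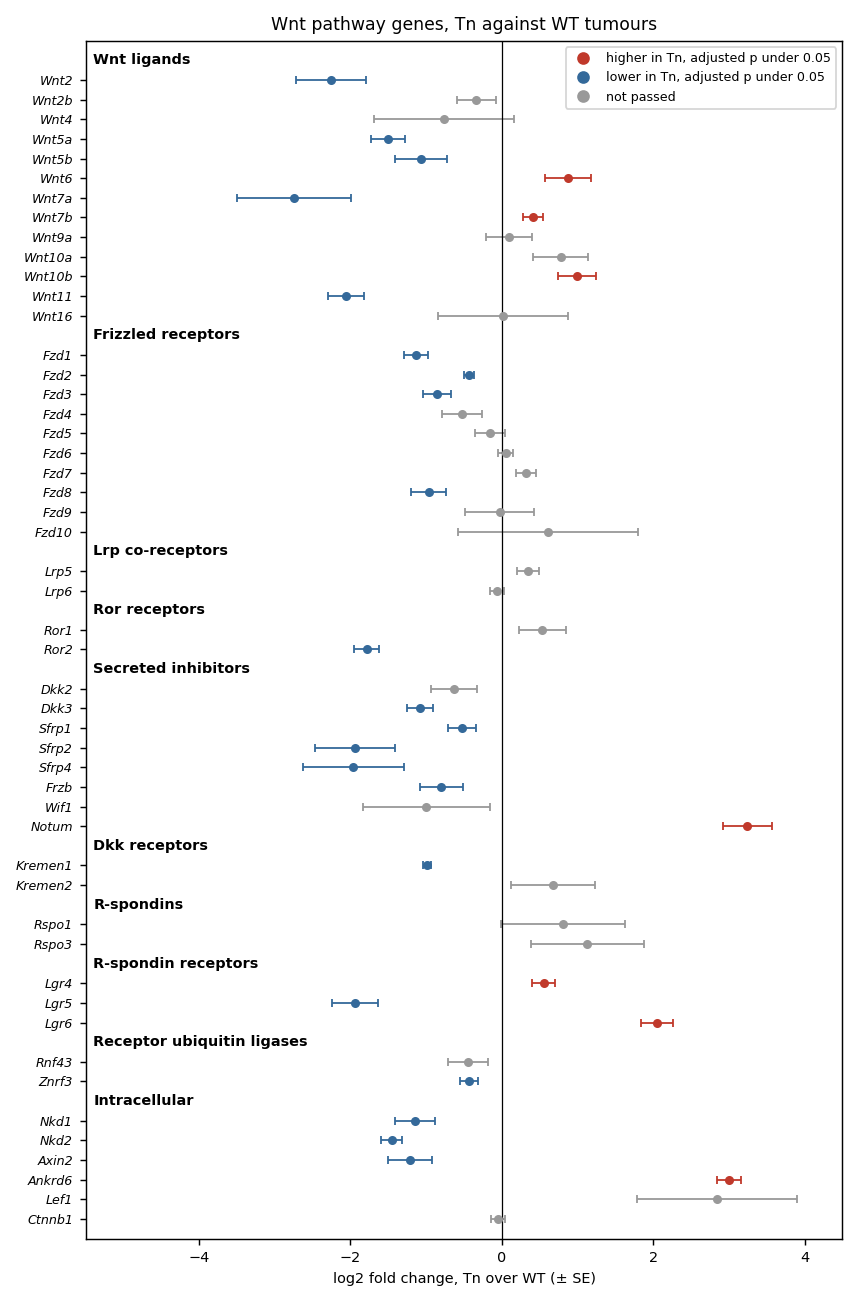
Log2 fold change, Tn over WT, of the 50 tested Wnt pathway genes (x axis; points are edgeR estimates, whiskers SE) in rows grouped by role. Red points passed as higher in Tn, blue as lower in Tn and grey did not pass; Notum, Ankrd6 and Lgr6 lie furthest right among those that passed, and Wnt7a, Wnt2 and Wnt11 furthest left.

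**Figure D2:**
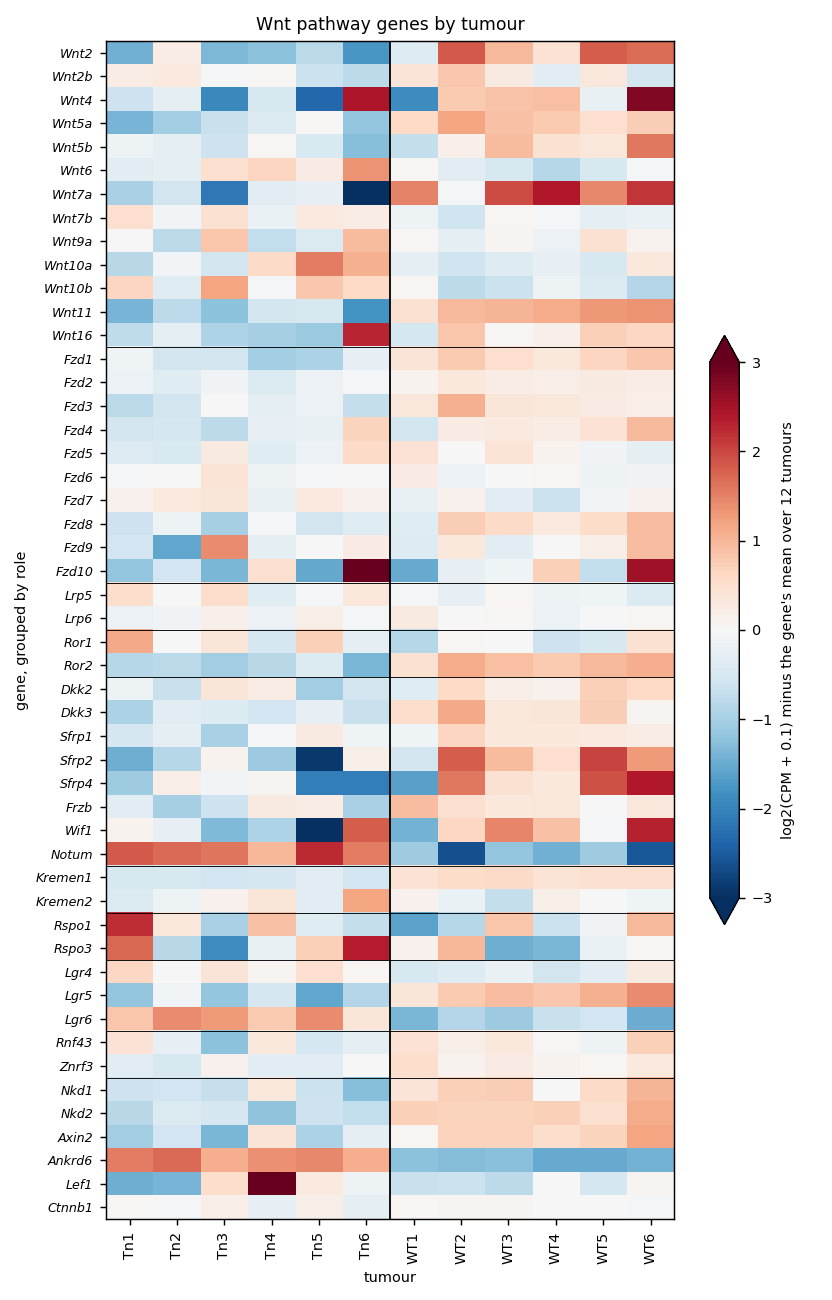
Level of each tested gene in each tumour (columns, Tn on the left, WT on the right) as log2(CPM + 0.1) minus the gene's mean over the 12 tumours, with colours held at -3 and 3. Notum, Lgr6 and Ankrd6 are above their mean in each Tn tumour, Wnt11, Ror2 and Nkd2 below it, and Lef1 is highest in Tn tumour 4.

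Among the ligands, those that passed as lower were Wnt2, Wnt5a, Wnt5b, Wnt7a and Wnt11, and those that passed as higher were Wnt6, Wnt7b and Wnt10b. Levels are given as CPM, counts scaled to the depth of each library, and 3 values in a row are the lowest, the median and the highest of the 6 tumours of a group. Wnt5a (ENSMUSG00000021994, GRCm39 chromosome 14, 28226707 to 28249405, plus strand), the model ligand of the branch without β-catenin, held 10.2, 15.1 and 27.7 CPM in Tn tumours, against 38.9, 46 and 62.1 CPM in WT tumours. The groups did not overlap, and the log2 fold change was -1.5 ± 0.23 (SE; edgeR adjusted p = 0.000452). Wnt11 (ENSMUSG00000015957, GRCm39 chromosome 7, 98484319 to 98504402, plus strand), which drives convergent extension in the embryo, held 2.06, 3.66 and 5.21 CPM in Tn tumours, against 10.2, 15.4 and 18.9 CPM in WT tumours. Every Tn tumour had less than the lowest WT tumour, at a log2 fold change of -2.06 ± 0.24 (edgeR adjusted p = 8.94e-05).

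Wnt2, a ligand of the β-catenin branch made by mesenchymal cells of several organs, held 0.497, 0.719 and 2.24 CPM in Tn tumours, against 1.42, 5.04 and 7.02 CPM in WT tumours, with WT tumour 1 the lowest WT tumour and Tn tumour 2 the highest Tn tumour (-2.26 ± 0.47, edgeR adjusted p = 0.00283). Wnt7a, which patterns the back of the limb, held 0.0148, 2.42 and 3.49 CPM in Tn tumours, against 4.02, 14.1 and 22.1 CPM in WT tumours. The groups did not overlap, and Tn tumour 6 had almost none (-2.75 ± 0.75, edgeR adjusted p = 0.0135). Wnt5b, the paralog of Wnt5a, held 0.98, 1.91 and 2.57 CPM in Tn tumours, against 1.5, 3.32 and 7.63 CPM in WT tumours, so the groups overlapped (-1.07 ± 0.35, edgeR adjusted p = 0.0293). The Wnt5b call ended without any 1 of Tn tumours 3, 5 and 6 and WT tumours 3 and 6 (edgeR adjusted p up to 0.0686), and without WT 6, Tn 4 and Tn 6 it was -0.71, adjusted p = 0.0925 (edgeR). Fbxl14 lies on the other strand within the extent of Wnt5b. Its mean was 86.0 CPM in Tn and 76.0 CPM in WT tumours, and the counts do not use strand.

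Wnt10b, a ligand of the early mammary bud that holds back fat cell formation, rose to 8.1, 16.1 and 23.8 CPM in Tn tumours, against 5.69, 7.27 and 10.9 CPM in WT tumours (0.99 ± 0.25, edgeR adjusted p = 0.00919). The ranges overlapped in Tn tumours 2 and 4. Wnt7b, a ligand of lung and kidney development, held 308, 419 and 499 CPM in Tn tumours, against 232, 312 and 367 CPM in WT tumours, a log2 fold change of 0.41 ± 0.14 (edgeR adjusted p = 0.0323). This call ended without any 1 of Tn tumours 1, 3 and 5 and WT tumours 2, 5 and 6, at 0.35 to 0.49 over all 12 omissions (edgeR adjusted p up to 0.072), and with upper-quartile scaling (0.36, adjusted p = 0.0574, edgeR). Wnt6, an epithelial ligand, held 0.785, 1.33 and 2.69 CPM in Tn tumours, against 0.508, 0.741 and 1.02 CPM in WT tumours (0.87 ± 0.31, edgeR adjusted p = 0.0411). Its call ended without any 1 of Tn tumours 3, 4 and 6 and WT tumours 2 to 5 (edgeR adjusted p up to 0.0918), with upper-quartile scaling (0.82, adjusted p = 0.0536, edgeR), with no filter (0.88, adjusted p = 0.059, edgeR), and without WT 6, Tn 4 and Tn 6 (0.53, adjusted p = 0.156, edgeR).

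The other 5 ligands did not pass. Wnt10a, a ligand of teeth and skin appendages, held 13.2, 28.7 and 68.4 CPM in Tn tumours, against 15.5, 18.8 and 29.5 CPM in WT tumours, and Tn tumours 4, 5 and 6 lay above every WT tumour (0.78 ± 0.37, edgeR adjusted p = 0.114). Without Tn tumour 1, Wnt10a passed (0.95, adjusted p = 0.0474, edgeR). Wnt9a, a ligand of joint formation, held 11.6, 17.6 and 38.9 CPM in Tn tumours, against 16.4, 21.1 and 27.7 CPM in WT tumours, the Tn tumours spreading to both sides of the WT range (0.09 ± 0.30, edgeR adjusted p = 0.839). Wnt2b, the paralog of Wnt2, held 1.95, 3.38 and 4.16 CPM in Tn tumours, against 2.28, 4.23 and 6.06 CPM in WT tumours (-0.34 ± 0.26, edgeR adjusted p = 0.329). Wnt4 and Wnt16 are described with the genes that followed single tumours.

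Wnt7b made up most of the ligand RNA in both groups. Per kilobase of exon, Wnt7b had 83.8 ± 15.8 in Tn and 63.1 ± 9.34 in WT tumours (CPM per kilobase, SD, n = 6 each). Its share of the summed CPM per kilobase of the 13 ligands was 65.8, 72.1 and 82.6% in Tn tumours, against 57.9, 63.6 and 67.3% in WT tumours (lowest, median, highest). The next ligands per kilobase were Wnt10a (13.9 ± 8.77 in Tn and 8.07 ± 2.01 in WT tumours), Wnt9a (6.71 ± 3.68 in Tn and 6.31 ± 1.17 in WT tumours) and Wnt5a (2.14 ± 0.829 in Tn and 6.06 ± 1.06 in WT tumours). In Tn tumours Wnt10b (4.54 CPM per kilobase) stood above Wnt5a (2.14), while in WT tumours it stood below (2.28 against 6.06). These orders are a description with no test, and Wnt9a and Wnt5a in WT tumours differed by less than the SD of either. The sum over the 13 ligands was 89.96, 125 and 134 in Tn tumours, against 79.8, 101 and 111 in WT tumours.

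**Figure D3:**
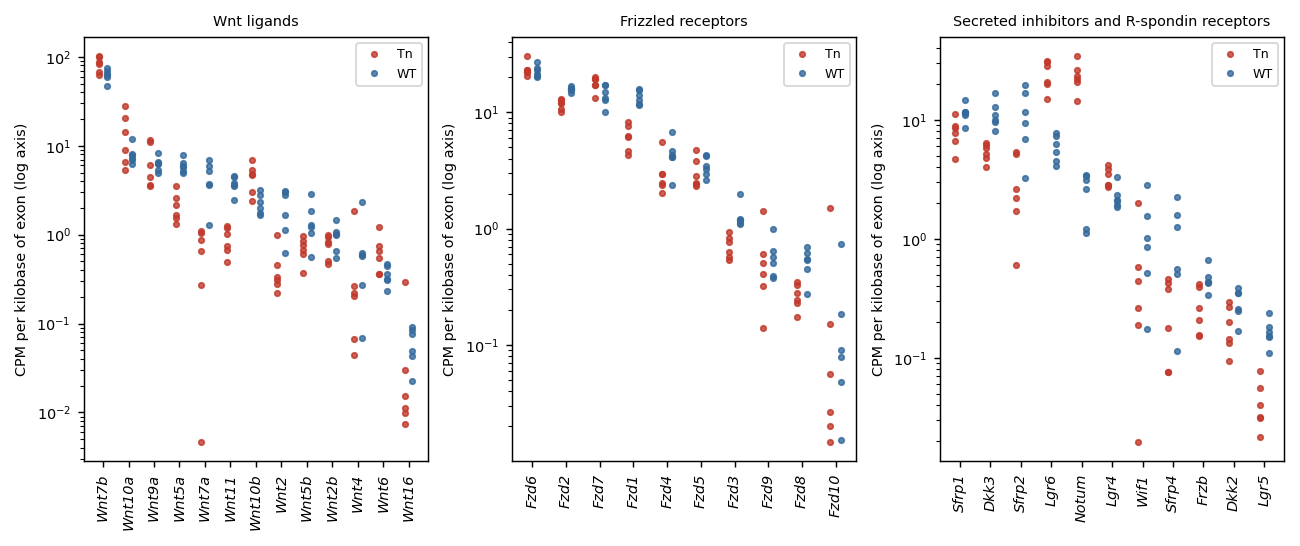
CPM per kilobase of exon in each tumour (points, log axis; Tn left and red, WT right and blue) for ligands, frizzled receptors, and secreted inhibitors with R-spondin receptors, ordered by the WT mean. Wnt7b is the highest ligand, with means of 83.8 in Tn and 63.1 in WT tumours, and Notum and Lgr6 are the genes of the right panel where Tn lies above WT without overlap.

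Most markers of stromal cells were also lower in Tn tumours. Of 10 fibroblast markers 9 were lower and 1, Pdgfra, was higher in Tn tumours, and their summed level ran over 3300.5 to 4727 CPM in Tn and 7937 to 20428 CPM in WT tumours. Of 9 pericyte and smooth muscle markers 7 were lower and 0 higher, with sums of 227 to 575 CPM in Tn and 562 to 967 CPM in WT tumours. Of 9 endothelial markers 6 were lower and 0 higher, with sums of 408 to 612 CPM in Tn and 490.4 to 729 CPM in WT tumours. All markers of these 3 lists had a mean of at least 1 CPM. Of 12 mammary epithelium markers 3 were lower and 0 higher, with sums of 2016 to 5169 CPM in Tn and 2062 to 5158 CPM in WT tumours. Of 8 macrophage markers 6 were higher and 0 lower, with sums of 1194 to 3624 CPM in Tn and 776 to 1207 CPM in WT tumours. Among all tested genes 17.4% were lower and 19.5% higher. The part of these cells in the Wnt gene changes was not tested.

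Of the 10 frizzled receptors, Fzd1, Fzd2, Fzd3 and Fzd8 were lower in Tn tumours and none passed as higher. Fzd1 (ENSMUSG00000044674, GRCm39 chromosome 5, 4803839 to 4808035, minus strand), a broadly expressed receptor, held 18.2, 25.8 and 34.7 CPM in Tn tumours, against 48, 56.2 and 66.1 CPM in WT tumours, with no overlap (-1.13 ± 0.16, edgeR adjusted p = 0.000292). Fzd2, a receptor for Wnt5a among others, held 37, 43.9 and 47.5 CPM in Tn tumours, against 53.8, 57.8 and 61.7 CPM in WT tumours, a small change with a narrow spread and no overlap (-0.43 ± 0.07, edgeR adjusted p = 0.000616). Fzd3, needed for axon guidance and planar polarity, held 6.85, 8.96 and 12.1 CPM in Tn tumours, against 14, 15.2 and 25.1 CPM in WT tumours, again with no overlap (-0.86 ± 0.18, edgeR adjusted p = 0.00299). Fzd8, a receptor that pairs with Lrp6, was low, at 1.03, 1.56 and 2.08 CPM in Tn tumours, against 1.65, 3.25 and 4.18 CPM in WT tumours, and its ranges overlapped (-0.97 ± 0.23, edgeR adjusted p = 0.00663).

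Fzd6 and Fzd7, the most abundant frizzled receptors per kilobase of exon in Tn tumours, did not pass. Fzd6, a receptor of hair and skin polarity, held 98.8, 109 and 146 CPM in Tn tumours, against 97.3, 106 and 131 CPM in WT tumours (0.05 ± 0.10, edgeR adjusted p = 0.706). Fzd7, found on epithelial and stem cells, held 60.6, 82.5 and 90.6 CPM in Tn tumours, against 45.2, 63.9 and 77.9 CPM in WT tumours (0.32 ± 0.14, edgeR adjusted p = 0.0814). Fzd7 passed as higher without Tn tumour 4 (0.40, adjusted p = 0.0262, edgeR), without WT tumour 2 (0.39, adjusted p = 0.0446, edgeR), without WT 6, Tn 4 and Tn 6 (0.49, adjusted p = 0.0197, edgeR), and with limma voom (0.44, adjusted p = 0.0273). Fzd4, the vascular receptor for norrin, held 13.6, 18.1 and 37 CPM in Tn tumours, against 16, 28.2 and 45.8 CPM in WT tumours (-0.53 ± 0.27, edgeR adjusted p = 0.137), and it passed as lower without Tn tumour 6 (-0.78, adjusted p = 0.0157, edgeR), without WT 6, Tn 4 and Tn 6 (-0.65, adjusted p = 0.0242, edgeR), and with limma voom (-0.67, adjusted p = 0.0186).

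Fzd5, needed by Paneth cells of the gut, held 15.9, 18.3 and 32.8 CPM in Tn tumours, against 18, 23 and 29.7 CPM in WT tumours (-0.16 ± 0.19, edgeR adjusted p = 0.551). Fzd9 held 0.322, 1.05 and 3.26 CPM in Tn tumours, against 0.856, 1.24 and 2.3 CPM in WT tumours (-0.03 ± 0.45, edgeR adjusted p = 0.965). Per kilobase, the share of Fzd6 and Fzd7 together in the summed frizzled level was 54.4, 62.2 and 65.1% in Tn tumours, against 46.2, 47.1 and 53.6% in WT tumours (lowest, median, highest). The ranges of this share did not overlap, with Tn above WT, a description with no test. The sum over the 10 frizzled genes was 55.4, 65.5 and 77.6 in Tn tumours, against 70.9, 75.5 and 82.8 in WT tumours (CPM per kilobase).

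Of the co-receptors, neither Lrp passed. Lrp5, known for its part in bone mass, held 191, 277 and 354 CPM in Tn tumours, against 186, 224 and 255 CPM in WT tumours (0.34 ± 0.15, edgeR adjusted p = 0.0831), and without Tn tumour 4 it passed as higher (0.44, adjusted p = 0.015, edgeR). Lrp6, its paralog, ran over 105 to 133 CPM in Tn and 105 to 144 CPM in WT tumours (-0.06 ± 0.09, edgeR adjusted p = 0.587). Ror2 (ENSMUSG00000021464, GRCm39 chromosome 13, 53263348 to 53440160, minus strand), the tyrosine kinase-like receptor of Wnt5a, held 2.87, 4.21 and 5.66 CPM in Tn tumours, against 10.4, 14.6 and 16.6 CPM in WT tumours. Every Tn tumour lay below every WT tumour, at -1.79 ± 0.16 (edgeR adjusted p = 2.39e-05), and Wnt5a above had the same split of the groups. Ror1, its paralog, held 2.8, 4.54 and 8.9 CPM in Tn tumours, against 2.15, 3.41 and 5.53 CPM in WT tumours, and did not pass (0.54 ± 0.31, edgeR adjusted p = 0.192). Without WT 6, Tn 4 and Tn 6, Ror1 passed as higher (0.99, adjusted p = 0.0189, edgeR).

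Among the secreted inhibitors, Notum rose and Dkk3, Sfrp1, Sfrp2, Sfrp4 and Frzb fell. Notum (ENSMUSG00000042988, GRCm39 chromosome 11, 120544614 to 120552001, minus strand), a secreted enzyme that strips the lipid from Wnt proteins, held 34.7, 54.7 and 82.4 CPM in Tn tumours, against 2.72, 6.93 and 8.23 CPM in WT tumours. The lowest Tn tumour had more than 4 times the highest WT tumour, and the log2 fold change was 3.24 ± 0.33 (edgeR adjusted p = 4.73e-05). Notumos, a gene on the other strand that overlaps Notum, averaged 0.764 CPM in Tn and 0.0964 CPM in WT tumours. Dkk3, a divergent member of the Dickkopf family, held 13.4, 18.4 and 21.5 CPM in Tn tumours, against 27.2, 35.1 and 56.6 CPM in WT tumours, with no overlap (-1.08 ± 0.17, edgeR adjusted p = 0.000611).

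The secreted frizzled-related proteins bind Wnts through a domain like that of the receptors. Sfrp2 held 1.3, 5.22 and 11.6 CPM in Tn tumours, against 7.02, 22.7 and 42.5 CPM in WT tumours. WT tumour 1, which also had the lowest sum of fibroblast markers in its group (7937 CPM), lay within the Tn range (-1.94 ± 0.53, edgeR adjusted p = 0.0131). Sfrp4 held 0.319, 1.16 and 1.93 CPM in Tn tumours, against 0.477, 3.79 and 9.34 CPM in WT tumours, and WT tumour 1 alone lay within the Tn range (-1.96 ± 0.67, edgeR adjusted p = 0.0365). Sfrp1 held 20.7, 35.6 and 48.7 CPM in Tn tumours, against 37.2, 50.3 and 63.5 CPM in WT tumours (-0.53 ± 0.18, edgeR adjusted p = 0.0371). Frzb, also called Sfrp3, was low at 0.499, 0.759 and 1.34 CPM in Tn tumours, against 1.09, 1.4 and 2.14 CPM in WT tumours (-0.80 ± 0.28, edgeR adjusted p = 0.0414).

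The calls of 3 of these inhibitors did not hold with some single tumours left out. That of Sfrp1 ended without any 1 of Tn tumours 1, 2 and 6 and WT tumours 2 to 6 (edgeR adjusted p up to 0.0864), with no filter (-0.51, adjusted p = 0.0682, edgeR) and without WT 6, Tn 4 and Tn 6 (-0.59, adjusted p = 0.0751, edgeR). That of Sfrp4 ended without any 1 of Tn tumours 1, 5 and 6 and WT tumours 2, 5 and 6 (edgeR adjusted p up to 0.0805), with no filter (-1.95, adjusted p = 0.0831, edgeR), with limma voom (-1.82, adjusted p = 0.0506) and without WT 6, Tn 4 and Tn 6 (-1.53, adjusted p = 0.132, edgeR). That of Frzb ended without any 1 of Tn tumours 1, 2, 3 and 6 and WT tumours 1, 2, 3, 4 and 6 (edgeR adjusted p up to 0.0948), with no filter (-0.79, adjusted p = 0.0754, edgeR) and without WT 6, Tn 4 and Tn 6 (-0.86, adjusted p = 0.0523, edgeR). Over all 20 settings the log2 fold changes stayed below 0 in each of the 3 genes.

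Dkk2, which blocks or weakly activates Lrp6 depending on its partners, held 0.352, 0.636 and 1.1 CPM in Tn tumours, against 0.6252, 1.13 and 1.42 CPM in WT tumours, and did not pass (-0.63 ± 0.30, edgeR adjusted p = 0.115), except with limma voom (-0.73, adjusted p = 0.0472). Per kilobase of exon, the share of Notum in the summed level of the 8 secreted inhibitors was 44.9, 56.9 and 65.8% in Tn tumours, against 2.16, 7.34 and 12.5% in WT tumours (lowest, median, highest). The share of Sfrp1 was 12.2, 19.6 and 27.8% in Tn tumours, against 22.8, 30.02 and 34.9% in WT tumours. That of Dkk3 was 10.1, 13.5 and 16.1% in Tn tumours, against 21.5, 28.1 and 40.2% in WT tumours, so Notum led in every Tn tumour and in none of the WT tumours. The sum itself was 32.1, 40.4 and 53 in Tn tumours, against 27.3, 37.1 and 52.4 in WT tumours (CPM per kilobase), ranges that overlapped. These shares are a description with no test.

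**Figure D4:**
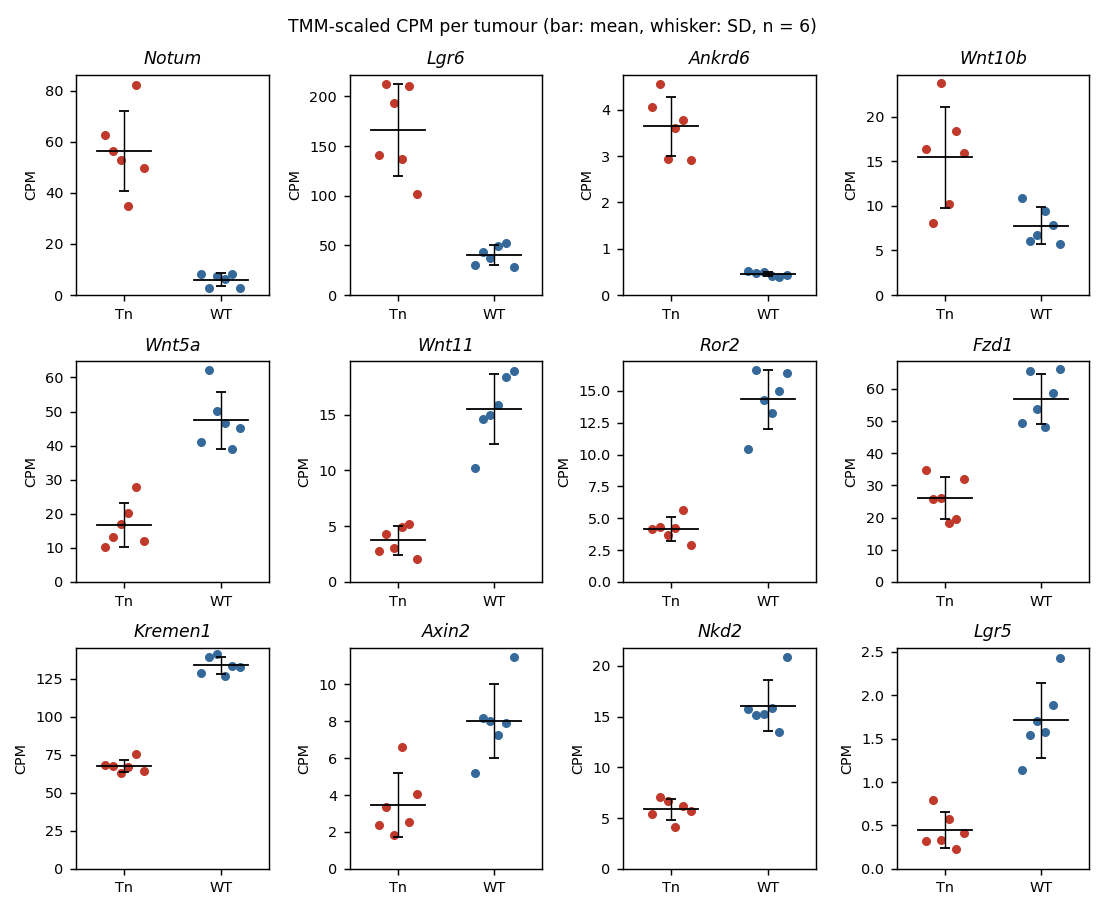
CPM in each tumour (points; Tn left, WT right; bar mean, whisker SD, n = 6 per group) for 12 Wnt pathway genes. Notum, Lgr6 and Ankrd6 are higher in every Tn tumour than in any WT tumour, Wnt5a, Wnt11, Ror2, Fzd1, Kremen1, Nkd2 and Lgr5 are lower, and Wnt10b and Axin2 overlap.

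Kremen1 (ENSMUSG00000020393, GRCm39 chromosome 11, 5141552 to 5211558, minus strand), which binds Dickkopf proteins and takes Lrp6 off the cell surface, had the narrowest error of the 21 genes that fell. It held 63.4, 67.4 and 75.3 CPM in Tn tumours, against 127, 133 and 141 CPM in WT tumours, a log2 fold change of -0.98 ± 0.05 (edgeR adjusted p = 5.43e-07). Kremen2 was near the limit of detection, at 0.0403, 0.0878 and 0.327 CPM in Tn tumours, against 0.0146, 0.0793 and 0.114 CPM in WT tumours (0.68 ± 0.55, edgeR adjusted p = 0.355), and overlaps an antisense gene, 9530082P21Rik, at 19.6 CPM in Tn and 18.3 CPM in WT tumours.

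The R-spondins, which raise the number of frizzled receptors at the surface, were scarce. Rspo1 held 0.082, 0.264 and 1.55 CPM in Tn tumours, against 0.0165, 0.182 and 0.606 CPM in WT tumours (0.81 ± 0.82, edgeR adjusted p = 0.463), and Rspo3 held 0.148, 1.02 and 4.56 CPM in Tn tumours, against 0.226, 0.758 and 1.71 CPM in WT tumours (1.13 ± 0.75, edgeR adjusted p = 0.253). Rspo2 had 0 counts in the 6 Tn tumours, which allows up to 0.00369 CPM over the group, and 6 counts in the 6 WT tumours, and was not tested. Without Tn tumour 1, which held 1.55 CPM, the log2 fold change of Rspo1 was -0.062.

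The receptors of the R-spondins went in opposite directions. Lgr6 (ENSMUSG00000042793, GRCm39 chromosome 1, 134911039 to 135033014, minus strand), a marker of skin and mammary progenitor cells, held 102, 167 and 213 CPM in Tn tumours, against 28.2, 39.9 and 52.8 CPM in WT tumours. Each Tn tumour lay above every WT tumour, at 2.05 ± 0.21 (edgeR adjusted p = 5.94e-05). Lgr4, the broadly expressed member, held 16, 18.7 and 24.6 CPM in Tn tumours, against 10.8, 12.3 and 19.3 CPM in WT tumours, and rose by 0.55 ± 0.16 (edgeR adjusted p = 0.0162), with WT tumour 6 inside the Tn range. Lgr5, a stem cell marker and Wnt target, was low and fell, at 0.224, 0.372 and 0.798 CPM in Tn tumours, against 1.14, 1.64 and 2.43 CPM in WT tumours, with no overlap (-1.95 ± 0.30, edgeR adjusted p = 0.000559). Per kilobase, the share of Lgr6 in the sum of the 3 receptors was 83, 88.1 and 91.7% in Tn tumours, against 53.9, 71.3 and 78.4% in WT tumours (lowest, median, highest).

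Rnf43 and Znrf3 are the ubiquitin ligases that clear frizzled receptors and that R-spondins neutralise. Znrf3 held 16.3, 18.1 and 24.8 CPM in Tn tumours, against 23.6, 25.7 and 32.9 CPM in WT tumours, and was lower (-0.44 ± 0.12, edgeR adjusted p = 0.0125), and of the Tn tumours number 3 alone reached the WT range. Rnf43 held 1.29, 2.62 and 4.31 CPM in Tn tumours, against 2.82, 3.77 and 5.29 CPM in WT tumours, and did not pass (-0.44 ± 0.27, edgeR adjusted p = 0.208).

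Within the cell, Axin2, Nkd1 and Nkd2 fell, Ankrd6 rose, and β-catenin RNA and Lef1 did not pass. Axin2 (ENSMUSG00000000142, GRCm39 chromosome 11, 108811175 to 108841609, plus strand), a scaffold of β-catenin destruction and a widely used readout of the pathway, held 1.85, 2.94 and 6.59 CPM in Tn tumours, against 5.19, 7.98 and 11.5 CPM in WT tumours. Tn tumour 4 was the highest of its group and lay within the WT range (-1.21 ± 0.29, edgeR adjusted p = 0.00653). Nkd1 and Nkd2 encode Naked proteins that bind Dishevelled. Nkd1 held 0.891, 1.45 and 2.93 CPM in Tn tumours, against 2.31, 3.63 and 4.75 CPM in WT tumours, with the same overlap at Tn tumour 4 (-1.14 ± 0.26, edgeR adjusted p = 0.0053), and Nkd2 held 4.14, 5.96 and 7.08 CPM in Tn tumours, against 13.5, 15.5 and 20.9 CPM in WT tumours, without overlap (-1.46 ± 0.14, edgeR adjusted p = 3.82e-05).

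Ankrd6 (ENSMUSG00000040183, GRCm39 chromosome 4, 32804035 to 32950841, minus strand), also known as Diversin, which binds Axin and Dishevelled and favours the polarity branch, held 2.92, 3.69 and 4.55 CPM in Tn tumours, against 0.399, 0.457 and 0.51 CPM in WT tumours. The spread within each group was small against the gap between them, at 3.00 ± 0.16 (edgeR adjusted p = 5.41e-07). Ctnnb1, the gene of β-catenin, held 740.1, 902 and 1049 CPM in Tn tumours, against 884, 929 and 961 CPM in WT tumours (-0.05 ± 0.09, edgeR adjusted p = 0.677). RNA level does not measure the stability of the β-catenin protein.

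Of 7 feedback and target genes among the members (Axin2, Nkd1, Notum, Rnf43, Znrf3, Lgr5 and Lef1), 4 fell and 1 rose, with a median log2 fold change of -0.44, where 17.4% of all tested genes were lower and 19.5% higher. Axin2, Nkd1, Znrf3 and Lgr5 fell while Notum rose. To show the stretch before the start sites of some of the genes that fell, the 250 bases before RefSeq starts (build GRCm38.p6, written 5′ to 3′ on the gene's strand) are printed for Axin2 (chr11:108920099-108920348, plus strand) and Nkd1 (chr8:88527383-88527632, plus strand), as readouts of the pathway, and for Wnt11 (chr7:98834862-98835111, plus strand), as a gene that fell and carries the TCF/LEF motif. Capitals mark the motif, searched as CTTTGNN with the last 2 letters A or T, on both strands, overlaps included.
Axin2: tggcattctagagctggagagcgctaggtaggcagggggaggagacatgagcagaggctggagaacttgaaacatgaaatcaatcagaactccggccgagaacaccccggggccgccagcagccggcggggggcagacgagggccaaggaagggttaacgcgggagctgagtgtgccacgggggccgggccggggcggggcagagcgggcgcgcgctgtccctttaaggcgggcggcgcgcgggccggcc
Nkd1: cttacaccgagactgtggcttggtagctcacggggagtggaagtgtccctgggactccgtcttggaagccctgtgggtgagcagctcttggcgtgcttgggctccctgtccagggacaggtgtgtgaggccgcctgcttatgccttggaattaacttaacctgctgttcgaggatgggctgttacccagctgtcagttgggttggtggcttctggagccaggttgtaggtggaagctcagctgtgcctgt
Wnt11: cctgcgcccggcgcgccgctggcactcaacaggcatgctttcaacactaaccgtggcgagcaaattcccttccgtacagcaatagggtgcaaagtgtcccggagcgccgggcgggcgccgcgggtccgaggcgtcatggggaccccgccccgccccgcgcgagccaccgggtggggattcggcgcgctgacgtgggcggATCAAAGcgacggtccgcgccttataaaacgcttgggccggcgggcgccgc

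The motif stood at position -51 before this Wnt11 start, and the windows of Axin2 and Nkd1 held no match. Of the 51 genes, 33 matched the promoter table by symbol outside chromosome 18, with 43 windows. Windows on chromosome 18, where Fzd8 is the only one of the 51 genes, were left out of these counts. Of the 33 genes, 4 (12.1%) had the motif in at least 1 window, namely Fzd7, Lef1, Wnt11 and Wnt5b. Over the whole table, with no chromosome left out, the share was 16.8% of 27025 genes and 14.8% of 32851 windows. The match is a description of these letters alone.

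Some genes followed single tumours rather than groups. Lef1, a TCF/LEF factor that is also active in developing lymphocytes, held 0.604, 1.95 and 51.5 CPM in Tn tumours, against 1.01, 1.19 and 1.93 CPM in WT tumours. The highest value, in Tn tumour 4, was followed by 2.69 CPM in Tn tumour 3 (2.84 ± 1.06, edgeR adjusted p = 0.0519). Without Tn tumour 4 its log2 fold change was 0.19, adjusted p = 0.731 (edgeR). It passed without Tn tumour 1, 2, 5 or 6 (edgeR adjusted p from 0.0348; log2 fold change up to 3.10). Tn tumour 4 also held the highest sums of 8 T cell markers (436 CPM, against 40.5 to 173 CPM in the other Tn tumours and 14.3 to 38.6 CPM in WT tumours) and of 6 B cell markers (1312 CPM, against 5.77 to 70.2 CPM in the other Tn tumours and 3.95 to 12 CPM in WT tumours). Of the T cell markers 7 were higher and 0 lower, and of the 4 B cell markers tested 4 were higher. Among all tested genes 19.5% were higher. The part of these lymphocytes in Lef1 was not tested.

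Wnt4, Wnt16, Fzd10 and Wif1 were high in Tn tumour 6, WT tumour 6 or both. Wnt16, a ligand of bone and skin, held 1.29 CPM in Tn tumour 6. The next Tn tumour, number 2, held 0.13 CPM, against 0.0987, 0.275 and 0.402 CPM over the WT tumours. Its log2 fold change was 0.01 ± 0.86 with all tumours, and -2.03, adjusted p = 0.00535 without Tn tumour 6 (edgeR), and -1.83, adjusted p = 0.0233 without WT 6, Tn 4 and Tn 6 (edgeR), so with that tumour left out Wnt16 passed as lower. Wnt4, a ligand that progesterone induces in mammary epithelium, held 7.65 CPM in Tn tumour 6 and 9.8 CPM in WT tumour 6, with 0.184, 0.891 and 7.65 CPM over Tn and 0.288, 2.45 and 9.8 CPM over WT tumours (-0.77 ± 0.93, edgeR adjusted p = 0.543). Without Tn tumour 6 Wnt4 passed as lower (-2.21, adjusted p = 0.0466, edgeR), and without WT tumour 6 its log2 fold change was 0.04, adjusted p = 0.98 (edgeR).

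Fzd10 held 4.86 CPM in Tn tumour 6 and 2.4 CPM in WT tumour 6, followed by 0.49 CPM in Tn tumour 4 and 0.6 CPM in WT tumour 4 (0.61 ± 1.19, and -1.83 without Tn tumour 6). Wif1, which binds Wnts in the extracellular space, held 0.048, 0.854 and 4.81 CPM in Tn tumours, against 0.428, 2.26 and 6.87 CPM in WT tumours, and did not pass (-1.0 ± 0.83, edgeR adjusted p = 0.369), at -1.95, adjusted p = 0.0714 without Tn tumour 6 (edgeR). The sum of the 11 keratinocyte markers found was 2391 CPM in Tn tumour 6 and 195 CPM in WT tumour 6, and ran from 3.8 to 51.6 CPM in the other Tn and from 5.87 to 92.9 CPM in the other WT tumours. Of these markers 6 were tested, 1 was higher and 0 lower, beside 19.5% higher and 17.4% lower among all tested genes. All 11 had a mean of at least 1 CPM over the 12 tumours, which takes in Tn tumour 6. The median of their sum was 4.87 CPM in Tn and 12.8 CPM in WT tumours. The 8 hair follicle markers had means below 1 CPM. The mammary epithelium sum was also the highest of each group here, at 5169 CPM in Tn tumour 6 and 5158 CPM in WT tumour 6. The adipocyte sum was the highest in WT tumour 6 (2278 CPM) and the lowest of its group in Tn tumour 6 (37.9 CPM). The part of skin, mammary epithelial or fat cells in these 4 genes was not tested.

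**Figure D5:**
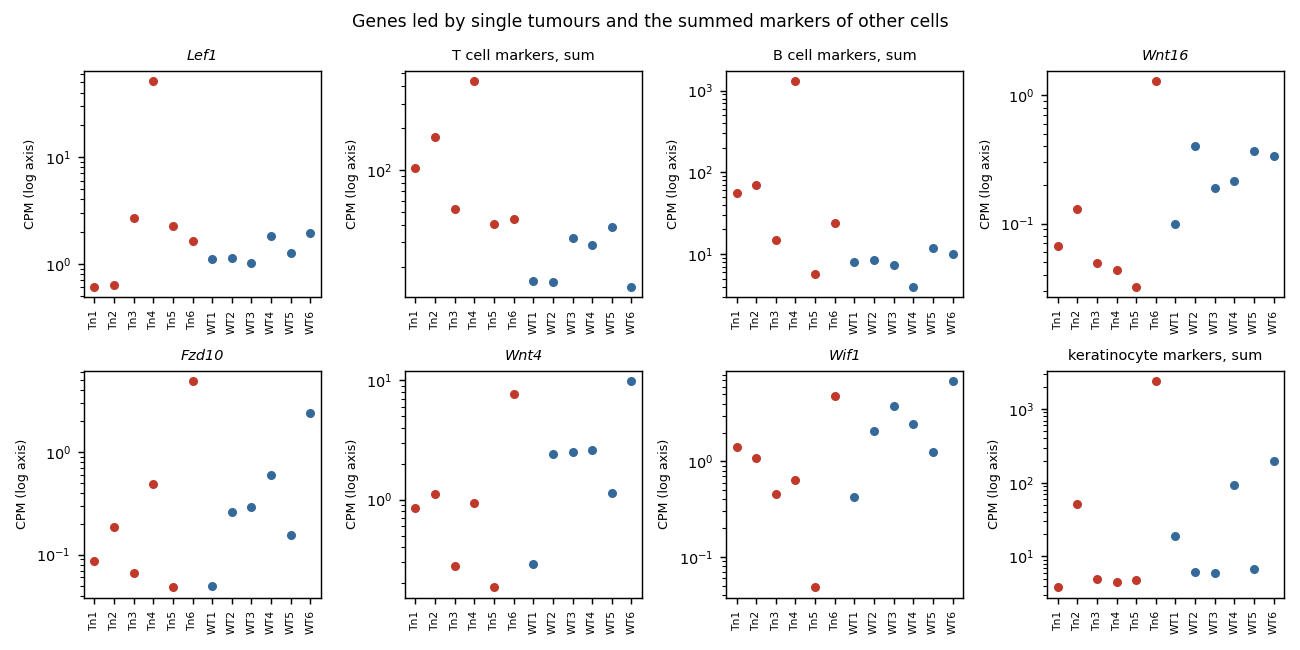
CPM per tumour (log axis; Tn left and red, WT right and blue) of Lef1, Wnt16, Fzd10, Wnt4 and Wif1 and the summed CPM of T cell, B cell and keratinocyte markers. Lef1 and the lymphocyte markers peak in Tn tumour 4, and Wnt16, Fzd10 and the keratinocyte markers in Tn tumour 6.

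Other genes of the pathway, from lists chosen by function, moved in both directions. Their counts stand beside 19.5% of all tested genes that were higher and 17.4% that were lower, and with lists this short nothing is read from them. The 2 genes of Wnt release differed in opposite ways: Wls, the carrier that takes Wnts to the cell surface, held 222, 353 and 496 CPM in Tn tumours, against 188, 205 and 266 CPM in WT tumours (0.69 ± 0.17, edgeR adjusted p = 0.00755), and Porcn, the enzyme that adds the lipid to Wnts, held 3.53, 4.36 and 9.98 CPM in Tn tumours, against 8.39, 11.2 and 12.6 CPM in WT tumours (-1.0 ± 0.25, edgeR adjusted p = 0.00817). Of 6 further ligands, 2 were tested and 1, Wnt1, was higher (1.39 ± 0.42, edgeR adjusted p = 0.0216), at 0.685, 1.48 and 4.43 CPM in Tn tumours, against 0.386, 0.701 and 1.22 CPM in WT tumours. Wnt1 did not pass without WT 6, Tn 4 and Tn 6 (1.33, adjusted p = 0.0718, edgeR) or with limma voom (0.89, adjusted p = 0.0951).

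Of 15 other extracellular modulators 12 were tested, 1 was higher and 5 were lower. Adgra2, which with Reck makes endothelial cells respond to Wnt7 ligands, fell (-1.58 ± 0.15, edgeR adjusted p = 3.52e-05), as did the glypicans Gpc3 (-2.21 ± 0.23, edgeR adjusted p = 5.9e-05) and Gpc6 (-1.41 ± 0.28, edgeR adjusted p = 0.00231), proteoglycans that hold Wnts at the cell surface. Reck, named here after its value was seen, was the 1 modulator that was higher, opposite to Adgra2 (0.54 ± 0.18, edgeR adjusted p = 0.0337). It did not pass with upper-quartile scaling (0.48, adjusted p = 0.0514, edgeR) or without any 1 of Tn tumours 1, 3 and 6 and WT tumours 3 to 6 (edgeR adjusted p up to 0.0757). Of 10 planar polarity and other receptor genes 5 were lower and 0 higher. Prickle1, a cytoplasmic polarity protein, held 5.11, 8.31 and 10.2 CPM in Tn tumours, against 19.2, 22.7 and 37.4 CPM in WT tumours (-1.67 ± 0.21, edgeR adjusted p = 0.000157), with Prickle2 also lower (-1.17 ± 0.32, edgeR adjusted p = 0.0137). Vangl1, a membrane polarity protein, was lower by less (-0.28 ± 0.10, edgeR adjusted p = 0.0446) and did not pass in 9 of the 12 omissions of a tumour, those of Tn tumours 3 to 6 and WT tumours 1 to 5 (edgeR adjusted p up to 0.113). Nor did it pass with limma voom (-0.22, adjusted p = 0.0698), with no filter (-0.27, adjusted p = 0.0861, edgeR) or without WT 6, Tn 4 and Tn 6 (-0.21, adjusted p = 0.152, edgeR).

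Of 15 genes of the cytoplasmic relay 2 were higher and 5 lower, with log2 fold changes of the 15 between -0.57 and 0.45. Apc, a scaffold of the destruction complex, changed by -0.57 ± 0.08 (edgeR adjusted p = 0.000374), Gsk3b, its kinase, by -0.32 ± 0.06 (edgeR adjusted p = 0.00158), and Dvl3, a Dishevelled, by -0.30 ± 0.06 (edgeR adjusted p = 0.00222). Of 13 nuclear partners 3 were higher and 4 lower. Pygo1, a coactivator, was low and fell (-1.76 ± 0.24, edgeR adjusted p = 0.000234), Tcf7l1, a TCF factor that often represses, fell (-0.84 ± 0.17, edgeR adjusted p = 0.00252), and Bcl9l, a partner of β-catenin, rose (0.53 ± 0.11, edgeR adjusted p = 0.0035). Of 12 other reported targets 10 were tested, 0 were higher and 4 were lower. Ccn4, a matricellular protein also made by fibroblasts, held 12, 24.7 and 27.9 CPM in Tn tumours, against 48.8, 62.6 and 72.3 CPM in WT tumours (-1.43 ± 0.18, edgeR adjusted p = 0.000141), Ephb2, a receptor of cell positioning, changed by -0.63 ± 0.17 (edgeR adjusted p = 0.011), and the cyclin gene Ccnd1 by -0.39 ± 0.12 (edgeR adjusted p = 0.0233). Ccnd1 did not pass without Tn tumour 1, WT tumour 2 or WT tumour 3 (edgeR adjusted p up to 0.0625) or without WT 6, Tn 4 and Tn 6 (-0.36, adjusted p = 0.0666, edgeR). Median log2 fold changes were 1.6 for the 2 further ligands tested, -0.15 for release, -0.66 for modulators and -0.47 for polarity. They were 0.00 for the relay, 0.10 for nuclear partners and -0.25 for other targets. Of the 2 further ligands, Wnt3 did not pass (1.807 ± 1.635, edgeR adjusted p = 0.408) and was highest in Tn tumour 6, at 11.8 CPM.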

How the data were processed

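RNA came from tumour tissue with an integrity number above 7, and libraries were stranded and poly(A)-selected, per the labels' protocols and design text. The submitters' processing notes name fastp 0.23 for trimming, STAR 2.7.11a for alignment to GRCm39, and Subread 2.1.1, whose featureCounts gave the counts. The deposited values are raw counts by the authors over exons of Ensembl genes, without strand and without an option that takes a read pair as 1, per the file headers. Of counts between 1 and 20, 66.4% to 72.5% were even in each library, as when a pair adds 2. The upper limit given for Rspo2 in Tn tumours covers counting error only, while SE and SD include differences between tumours. For 22 of the 51 genes the extent, introns included, overlaps that of another gene on the opposite strand. Whether their exons overlap was not checked, and where they do, the reads of both genes cannot be told apart.

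Counts of 12 tumours, 6 per group, were fitted with edgeR 4.0.16 (R 4.3.3; TMM scaling, filterByExpr, robust quasi-likelihood test, two-sided, Benjamini-Hochberg over 19255 genes). SE is the log2 fold change over the root of F. CPM are TMM-scaled; CPM per kilobase divide by the deposited exon length. The fit was tested on simulated data of 19255 genes, of which 200 with a mean of 1 CPM or more were changed. It recovered 41.8%, 74.6% and 92.4% of genes changed by 1.5, 2 and 4 times, with 6 false calls. In the tumours 36.8% of the genes passed, a far larger share, so these rates need not hold there. Replicates of a group differed beyond sampling noise (chi-square per degree of freedom at least 42.2). Nothing says that the tumours share an animal or a day, and the labels name 1 batch. Library numbers are lower for all Tn than all WT tumours, and an effect of that order cannot be told apart from the group. Symbols come from GENCODE M39.

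All 51 members are named, with up to 3 genes of each pathway list by p. The members, the lists and the omission of WT 6, Tn 4 and Tn 6 were chosen with earlier results of these data known. Also tried were DESeq2 1.42.0, voom of limma 3.58.1, scaling by RLE or upper quartile, no filter or a mean of 1 CPM, stricter thresholds, the tumour number as a block, and omission of each tumour.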

Additional observations from a re-analysis of the deposited data

Results flagged for a closer look

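In 7 of 100 groups of 6 tumours (50 genes, both groups), a tumour at the end of the range stood far from the nearest other one, measured as the gap over the range on log2 CPM (Dixon's test at 95%). Chance flags about 1 in 20 groups. In Tn tumours these were Wnt7a, lowest in tumour 6 at 0.0148 CPM (gap over range 0.707), Wnt16, highest in tumour 6 (0.661), Fzd6, highest in tumour 3 at 146 CPM (0.703), and Lef1, highest in tumour 4 at 51.5 CPM (0.667). In WT tumours they were Fzd3, highest in tumour 2 at 25.1 CPM (0.809), Kremen2, lowest in tumour 3 at 0.0146 CPM (0.668), and Nkd2, highest in tumour 6 at 20.9 CPM (0.634). The calls of Fzd3 and Nkd2 as lower held with the tumour in question left out, at -0.69 and -1.36, and so did that of Wnt7a, at -2.49, though it ended with the tumour number as a replicate block.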

How the results depend on the processing

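Of the 28 calls, 21 (5 higher, 16 lower) held in all 20 other settings and 7 ended in at least 1, namely Wnt5b, Wnt6, Wnt7a, Wnt7b, Sfrp1, Sfrp4 and Frzb; none of the 28 changed direction, and 9 of 22 other genes passed in at least 1 setting. The genes called higher numbered 4 at an adjusted p under 0.01 and 3 with a change of at least 2-fold, against 7, and 5 to 8 with a tumour left out. Those called lower numbered 14 at either of these thresholds, against 21, and 17 to 21 with a tumour left out. Over all genes 3210 to 3778 were called higher with a tumour left out, against 3752, and 2833 to 3283 lower, against 3342. At the 2 stricter thresholds all genes were not counted, so the counts of members there have no share beside them. With upper-quartile scaling 0 extracellular modulators, against 1, and 1 relay gene, against 2, were higher. With the tumour number as a replicate block, 7 were higher and 18 lower, and over all genes 2998 were higher and 2878 lower. To look for pairs, the log2 CPM of each gene was taken as its deviation from the mean of the group. These deviations correlated at -0.147 to 0.193 between same-numbered tumours. By them 0 of 6 Tn tumours matched their own number best, so the number is not shown to pair tumours. Under the block Wnt7a (adjusted p = 0.0565, the one setting that ended its call), Wnt5b (0.143), Wnt6 (0.0954), Sfrp4 (0.18) and Frzb (0.0614) did not pass in edgeR, and Fzd4 (0.021) and Fzd7 (0.0257) did. Genes that had not passed changed sign as follows, and the cause was not tested. With limma voom Wnt9a was at -0.17, Wnt16 at -1.5 and Fzd10 at -0.94. With the block Wnt9a was at -0.069, Wnt16 at -1.29 and Fzd10 at -0.40. With upper-quartile scaling Wnt16 was at -0.047 and Fzd6 at -0.001. Without WT 6, Tn 4 and Tn 6, Wnt16 was at -1.83, Fzd9 at 0.28, Fzd10 at -1.47, Kremen2 at -0.22 and Ctnnb1 at 0.063. With each tumour left out, Wnt4 ran from -2.21 to 0.036, Wnt9a from -0.14 to 0.23, Wnt16 from -2.03 to 0.24, Fzd6 from -0.030 to 0.12, Fzd9 from -0.54 to 0.20, Fzd10 from -1.83 to 1.81, Lrp6 from -0.10 to 0.001, Rspo1 from -0.062 to 1.22 and Ctnnb1 from -0.099 to 0.004. Genes under 1 CPM rest on few counts, and the simulation did not measure recovery there.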
